A study of Homo sapiens with 12 samples.

Results

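The baseline of TYRO3-depleted WM-266-4 cells is described here from the 3 control libraries of the series, 1 from each of 3 experiments, out of 12 libraries in all. They were chosen by their label alone: the cells had been transfected with a GFP plasmid and not with a TYRO3 construct. The other 9 libraries, from cells given wild-type or cleavage-resistant TYRO3, were not used here. WM-266-4 is an established human melanoma cell line. The cells of every library carried a stable lentiviral knock-down of TYRO3 made with a short hairpin RNA and were kept in DMEM with 10% fetal calf serum and 1 μg/ml puromycin. They were transfected with jetPRIME, in the control group with pEZY-myc-his GFP, and starved of serum overnight before lysis. The published methods speak of an empty control vector where the sample labels name GFP. Cells without the hairpin were not analysed here, so the size of the knock-down was not measured. Nothing in the sources used here says whether the 3 experiments used separately thawed or separately infected cultures, so the spread between them may be in part technical.

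Melanocytes arise from the neural crest, and the transcription factors SOX10, PAX3 and MITF hold them in their lineage. MITF switches on genes of the melanosome, the organelle in which tyrosinase and related enzymes make melanin. Melanoma cells are known to move between a differentiated, proliferative state with high MITF and an invasive state with low MITF, high AXL and much matrix and protease expression. TYRO3, AXL and MERTK form the TAM family of receptor tyrosine kinases, which bind the ligands GAS6 and protein S and can be cut at the cell surface by ADAM proteases and then within the membrane by gamma-secretase.

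Expression is given as TPM, the transcript abundance scaled to a fixed total per library and corrected for transcript length, so that genes can be compared with each other. CPM is the same for counts, without the length correction. The TPM of a gene is the sum over its transcripts. Values stand in the order of experiments 1, 2 and 3, and errors are the SD over these 3 libraries (n = 3). With a single group there is no contrast to test, and no test was made. The libraries differed in depth, with 4008293, 38184838 and 21132197 estimated counts, so that 3 counts correspond to 0.748, 0.0786 and 0.142 CPM. Such floors and all comments on depth cover counting error only. Of all TPM, 16.9%, 13.2% and 9.79% came from the 13 mitochondrial protein-coding genes, and 78.0%, 82.5% and 84.3% from nuclear protein-coding genes. RNA5-8SP6, a pseudogene of ribosomal RNA, was listed at 458, 647 and 12765 TPM in the 3 libraries. All pseudogenes of ribosomal RNA together, RNA5-8SP6 among them, had 718, 848 and 13255 TPM. AC010970.1 was listed at 333, 410 and 4376 TPM, so that experiment 3 stood apart in each of these.

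Of 19935 nuclear protein-coding genes, 12470 (62.6%) had a mean of 1 TPM or more. A mean of 10 TPM or more was reached by 8812 genes (44.2%), 100 TPM by 1566 and 1000 TPM by 108. The median over all nuclear protein-coding genes was 5.98 TPM. In each library taken alone, 12424, 12510 and 12274 genes reached 1 TPM, so this count was close to even over libraries whose depth differed by 9.53-fold. At 0 in every library stood 2670 genes (13.4%). The number of genes at 0 in a library was 5186, 3069 and 3698 and was highest in the least deeply sequenced library.

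Among nuclear protein-coding genes the highest levels were those of iron storage, translation, glycolysis and the cytoskeleton. The 20 highest nuclear protein-coding genes held 7.02% of all TPM, and the highest 100 held 18.9%. Expression was otherwise widely spread, since 676 genes were needed to hold 50% of the nuclear protein-coding TPM. FTH1, the heavy chain of ferritin, ranked highest with 7377, 8595 and 9136 TPM. Its partner FTL, the ferritin light chain, stood at 2952, 3284 and 4335 TPM, and both were lowest in experiment 1 and highest in experiment 3. The translation factor EEF1A1 had 4908 ± 423 TPM, the glycolytic enzyme GAPDH 4781 ± 633 TPM and the cytoskeletal actin ACTB 3826 ± 598 TPM. EEF1A1 and GAPDH too were lowest in experiment 1 and highest in experiment 3 on TPM, whereas ACTB was highest in experiment 1. The size of these differences depended on the scale. On TPM the ratio of experiment 1 to the mean of the others was 0.832 for FTH1, 0.775 for FTL, 0.878 for EEF1A1 and 0.789 for GAPDH. On CPM it was 0.963, 0.895, 0.960 and 0.908 in the same order.

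Chaperones and ribosomal proteins made up much of the rest. HSPA8, the constitutive chaperone of the HSP70 family, had 3395 ± 602 TPM, HSP90AA1, a cytosolic HSP90, 2402 ± 341 TPM, and PPIA, the prolyl isomerase cyclophilin A, 3161 ± 404 TPM. The nucleolar chaperone NPM1 had 2392 ± 168 TPM. Of 77 ribosomal protein genes, 8 were in the top 20, namely RPS18, RPL41, RPL19, RPS2, RPL8, RPL37A, RPL7 and RPL30, and 56 were in the top 100. Together the 77 held 11.04% ± 0.940 of all TPM, with 10.5%, 10.5% and 12.1% in the 3 libraries, and 66 of the 77 (85.7%) were highest in experiment 3 against 31.1% of all genes at 10 TPM or more. Many of these genes have processed pseudogenes with near-identical sequence, between which estimated counts can be split.

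Among the top 20 were also LGALS1, the secreted lectin galectin-1, with 3672 ± 414 TPM, and SPARC, a secreted matrix-binding glycoprotein, with 3216 ± 75.3 TPM. MTRNR2L12 was listed at 4369, 4511 and 3894 TPM, but its sequence is nearly identical to mitochondrial ribosomal RNA, so its place in the ranking is uncertain.

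**Figure D1:**
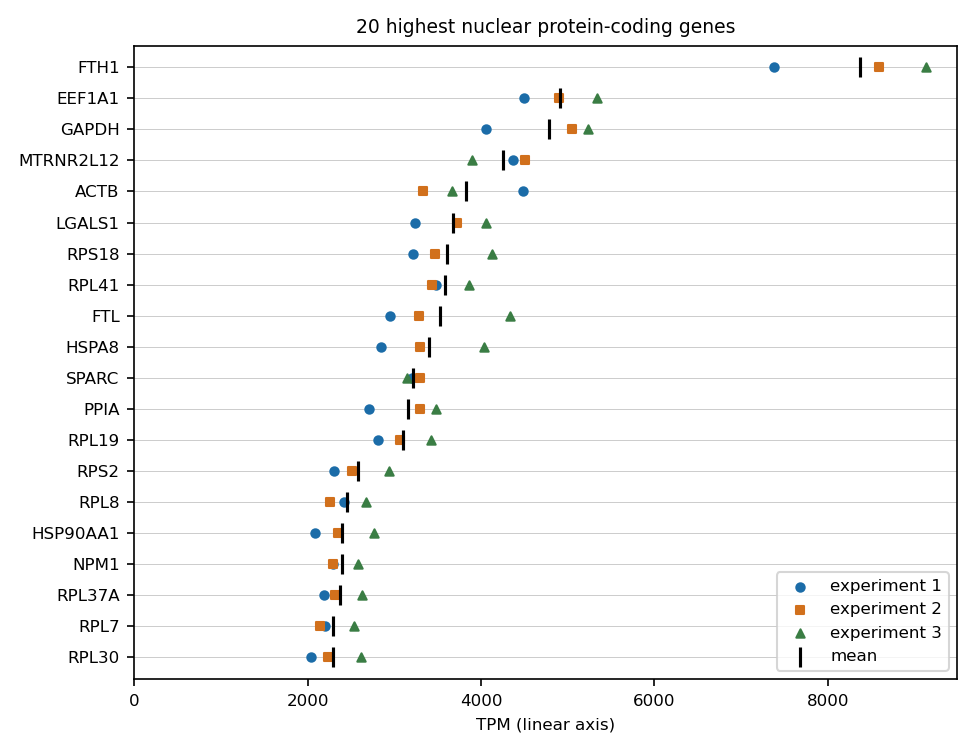
TPM (x axis, linear) of the 20 highest nuclear protein-coding genes (y axis) in experiments 1 (circles), 2 (squares) and 3 (triangles), with a black bar at the mean. FTH1 lies apart at 7377 to 9136 TPM, and all but ACTB, SPARC and MTRNR2L12 are highest in experiment 3.

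The melanoma label of the line was checked with the melanocytic markers MITF, PMEL, MLANA and SOX10, and all 4 were above 20 TPM in every library. SOX10, the neural crest factor that acts upstream of MITF, is at chr22:37970686-37987422 and was measured at 269, 388 and 323 TPM. MITF, at chr3:69739435-69968337, was measured at 127, 138 and 145 TPM and varied little between experiments. PMEL, at chr12:55954105-55973317, encodes the fibril protein of the melanosome and was by far the highest of the 4 with 1017, 1157 and 1209 TPM, which placed it at rank 89. MLANA, at chr9:5890802-5910606, the antigen also known as MART-1, was the lowest with 20.5, 24.9 and 36.4 TPM. These levels come from RNA pooled over all cells of a culture, so fewer cells with a transcript and less of it in each cell cannot be told apart.

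All 10 lineage transcription factors were measured. Of these, 9 (90%) had a mean of 10 TPM or more, beside 44.2% of all nuclear protein-coding genes. The summed TPM of the 10 was 759, 909 and 809, and their median was 47.6 TPM beside 5.98 TPM for all nuclear protein-coding genes. TFAP2A, a factor that acts with MITF at pigment genes, followed SOX10 and MITF with 131, 126 and 106 TPM. LEF1, the nuclear partner of beta-catenin, had 77.8 ± 8.95 TPM and ZEB2, the ZEB factor of differentiated melanocytes, 66.0 ± 8.60 TPM. IRF4, which cooperates with MITF at the tyrosinase gene, had 29.1 ± 2.74 TPM. The ranges of MITF and TFAP2A overlapped, as did those of LEF1 and ZEB2, whereas IRF4 lay below both of the latter in every library. SOX5, a modulator of SOX10 activity, had 24.3, 26.1 and 15.5 TPM and was lowest in experiment 3. PAX3, which activates MITF in the neural crest, had 21.1 ± 2.12 TPM, SNAI2, a neural crest factor of the SNAIL family, 15.5 ± 1.83 TPM, and FOXD3, a factor of the early neural crest, 9.76 ± 0.714 TPM. None of the 9 factors at 10 TPM or more differed over 2-fold between libraries, beside 2.59% of all genes at that level.

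MITF is transcribed from several alternative starts, of which the one farthest downstream is known to give the melanocytic form MITF-M. Of 18 annotated MITF transcripts, the 4 protein-coding ones that start between chr3:69936587 and chr3:69936723 on the plus strand held 95.1%, 89.9% and 90.04% of the MITF TPM. MITF-206, the longest of the 4, alone had 72.6, 84.0 and 88.8 TPM, while MITF-217 had 34.1, 11.9 and 20.03 TPM and MITF-201 11.2, 26.6 and 20.5 TPM. The sum over the downstream start was thus steadier than the split among its transcripts. The 12 transcripts that start upstream had 6.20, 13.7 and 14.3 TPM together, with MITF-218 at 0, 7.63 and 6.97 TPM. In experiment 1 the upstream sum rested on few counts, as MITF-202 had 46.8 and MITF-204 32.7 estimated counts there.

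The 12 genes of pigment and melanosome matrix were strongly unequal. Their sum was 1541, 1793 and 1884 TPM, most of it from PMEL. Their median was only 10.9 TPM. Of the 12, 7 (58.3%) had a mean of 10 TPM or more, beside 44.2% of all nuclear protein-coding genes. GPNMB, a PMEL-related glycoprotein of melanosomes and lysosomes, followed with 337, 408 and 418 TPM. DCT, the dopachrome tautomerase of the melanin pathway, had 112, 149 and 164 TPM, and for PMEL, GPNMB and DCT alike experiment 1 was lowest and experiment 3 highest.

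Apart from MLANA, the other genes of the list had means of 13.6 TPM or less. TYR, tyrosinase, the rate-limiting enzyme of melanin synthesis, had 10.0, 11.6 and 13.2 TPM, and MC1R, the receptor for melanocyte-stimulating hormone, 15.2, 13.7 and 12.0 TPM. SLC24A5, an ion exchanger of the melanosome, had 10.3 ± 0.383 TPM, GPR143, the receptor mutated in ocular albinism, 8.20 ± 0.893 TPM and OCA2, a melanosomal channel, 6.71 ± 0.383 TPM. SLC45A2, a melanosomal transporter, had 2.38 ± 0.424 TPM and TRPM1, a cation channel that also hosts a microRNA, 2.198, 1.20 and 0.942 TPM. TYRP1, the enzyme next to tyrosinase in eumelanin synthesis, was lowest with 0.251, 0.691 and 1.33 TPM, and its 3 values lay below those of every other pigment gene except TRPM1, whose range it overlapped. In experiment 1 the 0.251 TPM of TYRP1 rested on 2 estimated counts, so that value is imprecise.

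The promoters of pigment genes are known for the letters TCATGTG, a form of the E-box that MITF binds. The 250 bases before the RefSeq start (GRCh38.p14) were searched on both strands for these letters and for the shorter form CATGTG within them. The longer form was present before 5 of the 10 pigment genes in the promoter table (GPNMB, TYRP1, TYR, SLC24A5 and GPR143), 1 of 8 lineage transcription factors (ZEB2) and 0 of 22 invasive core genes, and before 704 of all 27305 promoters (2.58%). The shorter form was present before 8, 1 and 1 of the same genes and in 9.54% of all promoters. PMEL had no entry in the table. To set level against these letters, 3 genes that hold them and lie far apart in level are shown, GPNMB at 388 TPM, TYR at 11.6 TPM and TYRP1 at 0.757 TPM, each on the plus strand with the longer form or its reverse complement CACATGA in capitals and any further copy of the shorter form left in lower case.
GPNMB: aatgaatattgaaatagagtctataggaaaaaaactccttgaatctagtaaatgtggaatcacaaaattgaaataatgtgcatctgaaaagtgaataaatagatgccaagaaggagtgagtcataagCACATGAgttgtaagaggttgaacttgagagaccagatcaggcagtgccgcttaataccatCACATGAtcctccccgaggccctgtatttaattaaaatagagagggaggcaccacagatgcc
TYR: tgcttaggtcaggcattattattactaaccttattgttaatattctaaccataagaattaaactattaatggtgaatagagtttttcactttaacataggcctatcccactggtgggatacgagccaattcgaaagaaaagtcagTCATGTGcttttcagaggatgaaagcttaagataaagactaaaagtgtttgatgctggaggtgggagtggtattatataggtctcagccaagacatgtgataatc
TYRP1: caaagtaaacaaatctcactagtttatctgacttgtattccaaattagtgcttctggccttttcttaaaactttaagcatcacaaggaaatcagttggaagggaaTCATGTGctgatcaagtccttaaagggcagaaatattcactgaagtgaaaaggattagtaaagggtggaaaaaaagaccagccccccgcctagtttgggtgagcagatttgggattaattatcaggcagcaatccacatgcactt
These bases lie at chr7:23246525-23246774, chr11:89177625-89177874 and chr9:12693135-12693384. The capitals begin 123 and 62 bases before the start in GPNMB, 105 bases in TYR and 145 bases in TYRP1. The letters are those of the reference genome and not of the cell line, and a match is a description and not evidence of binding.

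The machinery that carries melanosomes was broadly expressed. All 19 genes of melanosome transport were above 1 TPM and 16 (84.2%) were at 10 TPM or more, with a median of 43.9 TPM. Among all nuclear protein-coding genes 62.6% and 44.2% reached these levels. HPS4 (73.0 ± 8.86 TPM) and AP3D1 (70.7 ± 7.72 TPM), parts of the complexes that sort cargo to melanosomes, were highest, followed by BLOC1S6 (60.5 ± 4.88 TPM), RAB38 (59.7 ± 20.8 TPM) and RAB27A (50.1 ± 13.2 TPM). RAB38, a small GTPase of cargo delivery, had 36.7, 65.0 and 77.4 TPM, a range of 2.11-fold on TPM and 1.86-fold on CPM. It was the only gene of the list at 10 TPM or more past 2-fold, 6.25% of those genes beside 2.59% of all at that level. The lowest were ATP7A, the copper pump that supplies tyrosinase, with 8.87 ± 0.721 TPM, MLPH, melanophilin, which links RAB27A to myosin Va, with 10.6, 5.57 and 3.53 TPM, and BLOC1S3 with 6.31 ± 1.28 TPM. MLPH was highest in experiment 1, opposite to RAB38, and its range was 3.003-fold on TPM and 1.64-fold on CPM.

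Genes of the invasive state were expressed at the same time, several of them at very high levels. Of 34 invasive core genes, 29 (85.3%) had a mean of 1 TPM or more and 21 (61.8%) of 10 TPM or more. Among all nuclear protein-coding genes the shares were 62.6% and 44.2%. The sum of the list was 11049, 11981 and 11473 TPM. LGALS1 and SPARC, already named among the top 20, led, and VIM, the intermediate filament of mesenchymal cells, followed with 1778, 2213 and 2144 TPM. FN1, the matrix protein fibronectin, had 931, 877 and 789.7 TPM, and MMP1, an interstitial collagenase, 455, 630.4 and 296 TPM. MMP1 differed by 2.13-fold between experiments 2 and 3, while SPARC had a spread of only 75.3 TPM around its mean. These 5 genes carried most of the sum of the list.

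The other end of the invasive list was near silence. WNT5A, the non-canonical Wnt ligand of invasive melanoma, had 0.294, 0.243 and 0.0124 TPM, SOX9, a SOX factor of the dedifferentiated state, 0.180, 0.476 and 0.310 TPM and LOX, the collagen cross-linking enzyme, 0.0690, 0.468 and 0.470 TPM. TCF4, a factor linked to the mesenchymal-like state, had 1.22, 2.197 and 0.299 TPM. The ratio between the highest and lowest library was largest in the list for WNT5A, TCF4 and LOX, all under 2.5 TPM in every library. In experiment 1 WNT5A and LOX rested on 1 estimated count each and TCF4 on 2. WNT5A also rested on 1 estimated count in experiment 3. THBS1, thrombospondin-1, was the most unequal of the genes at 10 TPM or more with 222, 61.3 and 74.0 TPM and, like CYR61, a matricellular protein, with 67.4, 26.7 and 42.2 TPM, was highest in experiment 1. THBS1 and CYR61 were chosen after their values were seen. AXL, the receptor that marks the invasive state, had 28.98, 27.3 and 21.0 TPM, close to TYRO3.

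The lineage factors stood above the invasive core in the median and the pigment genes below it. The log2 ratio of the median TPM of the pigment list to that of the invasive core list, with 0.1 TPM added to each value, was -1.34, -1.21 and -0.90 (mean -1.15 ± 0.22). For the lineage transcription factors over the invasive core the same measure was 0.72, 0.82 and 1.02 (0.85 ± 0.15). The median of the invasive core was 24.3 TPM, and its sum was larger than that of the pigment list in every library.

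Another pair of lists holds genes that follow the proliferative or the invasive state in melanoma lines. Here the invasive list was the lower, opposite in direction to the ratio of pigment to invasive core. Of 35 proliferative-state genes, 30 (85.7%) were at 10 TPM or more with a median of 35.0 TPM. Of 36 invasive-state genes 12 (33.3%) reached 10 TPM, beside 44.2% of all nuclear protein-coding genes. The median of the 36 was 5.22 TPM, beside 5.98 TPM for all nuclear protein-coding genes. The log2 ratio of the medians was 2.65, 2.76 and 3.02 (2.81 ± 0.19). CDK2, a cyclin-dependent kinase, led the proliferative list with 334 ± 19.2 TPM, but its gene (chr12:55966769-55972784, plus strand) lies within the span of PMEL on the opposite strand, and whether strand was used in the quantification is not given in the sources used here, so the reads of this pair may not have been told apart. IVNS1ABP, an actin-associated protein, had 206 ± 22.8 TPM, CAPN3, a calpain protease, 192 ± 35.5 TPM, APOE, a lipid carrier, 181 ± 48.0 TPM and CEACAM1, an adhesion molecule, 171 ± 49.5 TPM. The lowest of the list were ADCY2, an adenylyl cyclase, with 0.108, 0.494 and 0.370 TPM, CDH1, E-cadherin, with 5.35, 0.694 and 1.15 TPM and PLXNC1, a semaphorin receptor, with 3.3004, 2.37 and 3.07 TPM. CDH1 was the most unequal of the 35 genes on TPM, but its value in experiment 1 rested on 4.11 estimated counts, and on CPM experiment 1 was lowest with 1.02, against 1.22 and 2.47 in the others. In the invasive-state list TPM1, a tropomyosin, had 75.7 ± 13.3 TPM, ITGA3, the integrin alpha 3 subunit, 59.2 ± 15.5 TPM, CRIM1, a transmembrane antagonist of BMPs, 38.2 ± 14.9 TPM and MYOF, myoferlin, 29.8 ± 7.22 TPM. FST, follistatin, which binds activin, was lowest with 0, 0.118 and 0.389 TPM.

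**Figure D2:**
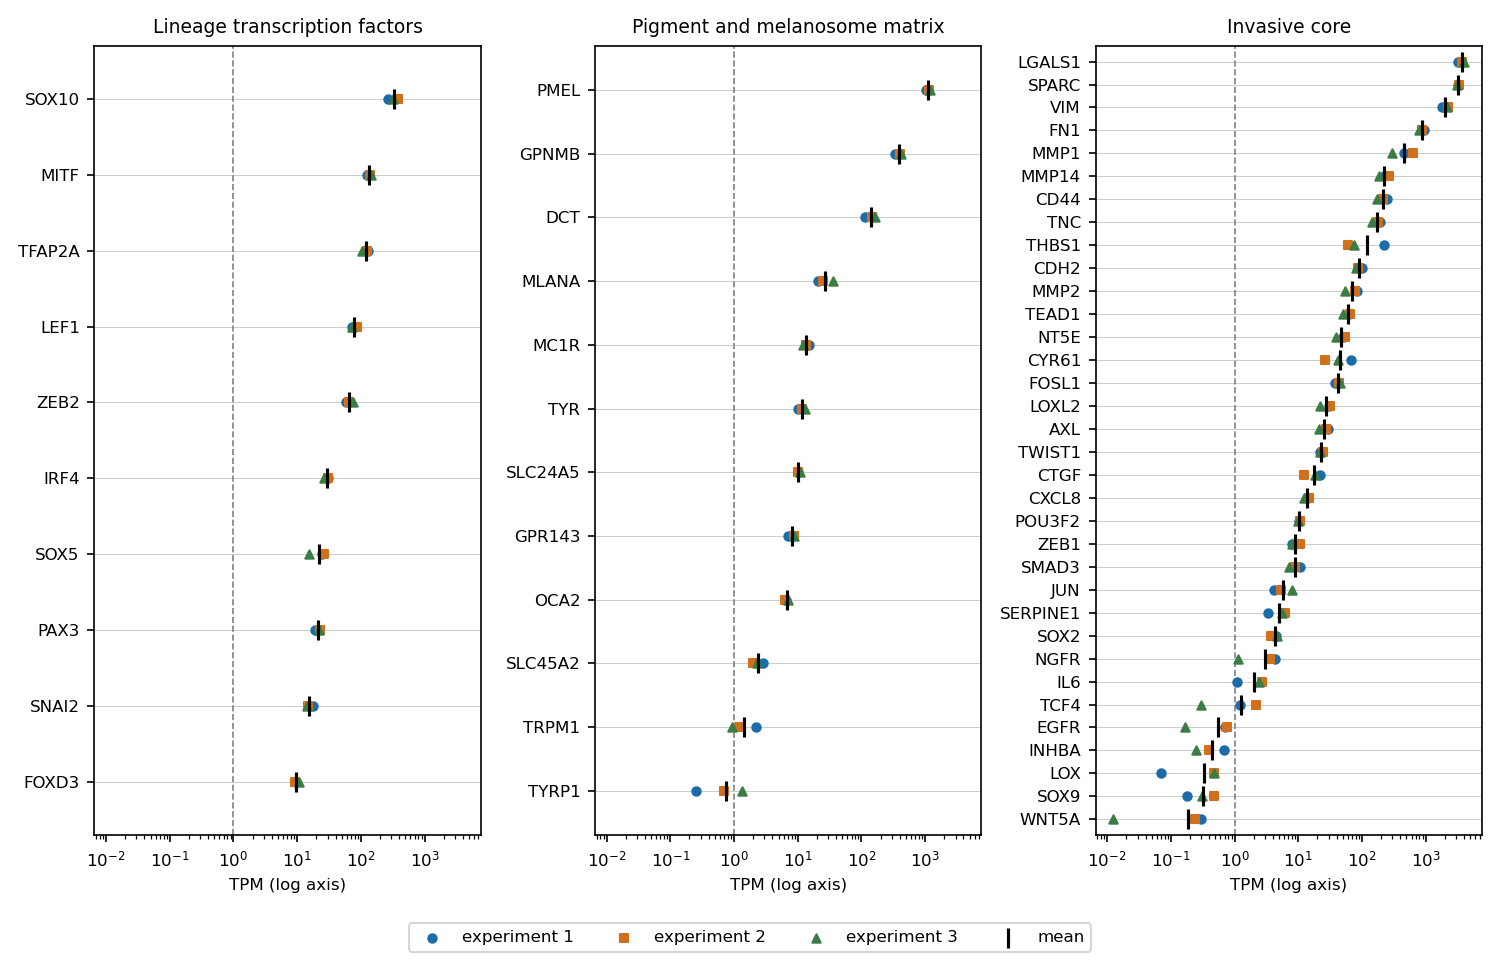
TPM (x axis, log scale) of every member of the lineage transcription factor, pigment and invasive core lists (y axis, ordered by mean) in experiments 1, 2 and 3, with a black bar at the mean and a dashed line at 1 TPM. All 10 lineage factors lie to the right of the line in every library, whereas the pigment list runs from PMEL at 1128 TPM to TYRP1 at 0.757 TPM and the invasive core from LGALS1 at 3672 TPM to WNT5A at 0.183 TPM.

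Melanoma antigens used in diagnosis or therapy were present throughout. All 13 genes of that list had a mean above 10 TPM and 7 were at 100 TPM or more. Among all nuclear protein-coding genes 44.2% and 7.86% reached these levels. CD63, a tetraspanin of late endosomes and melanosomes, had 1163 ± 121 TPM, the calcium-binding proteins S100A6 and S100A4 889.7 ± 119.9 and 697 ± 25.9 TPM, the adhesion molecule MCAM 537 ± 28.98 TPM and PRAME, an antigen shared with the germ line, 211, 292 and 276 TPM. The lowest were ST8SIA1, the synthase of ganglioside GD3, with 20.4 ± 5.31 TPM, L1CAM, a neural adhesion molecule, with 19.98 ± 0.717 TPM and BCAN, the proteoglycan brevican, with 13.2 ± 0.838 TPM. ST8SIA1 with 14.3, 24.2 and 22.7 TPM, ALCAM, a cell adhesion molecule, with 33.7, 29.5 and 20.8 TPM and CSPG4, a surface proteoglycan of melanoma, with 52.1, 75.4 and 54.4 TPM were the most unequal of the list. None of the 13 exceeded 2-fold, beside 2.59% of all genes at 10 TPM or more. PRAME was also quantified on alternative sequences of the genome, copies that are not part of the primary chromosomes, and had 474 TPM with these added. Adding such copies was an alternative chosen after the data were seen.

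Antigens whose normal expression is in the testis were split between high and silent members. Of 14 cancer-testis genes, 9 (64.3%) had a mean of 10 TPM or more, beside 44.2% of all nuclear protein-coding genes. MAGEA3 had 92.3, 116 and 133 TPM and its near-identical neighbour MAGEA6 80.2, 95.5 and 102 TPM, and MAGEA12, MAGEA1 and MAGEA2 followed at 71.6, 64.6 and 60.9 TPM. The MAGEA genes are close copies of each other, so that the split between them is uncertain. All 5 were lowest in experiment 1 and highest in experiment 3. MAGEC2 had 0, 0.0452 and 0.0790 TPM and the copies CTAG1B and CTAG1A of the antigen NY-ESO-1 had 0, 0 and 0.363 and 0, 0.109 and 0 TPM, at or near 0.

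Several genes that mark Schwann cells, another SOX10-dependent derivative of the neural crest, were also expressed. Beside 44.2% of all nuclear protein-coding genes, 7 of 9 such genes (77.8%) were at 10 TPM or more. Apart from SOX10 itself they included ERBB3, S100B with 92.7 ± 4.84 TPM, MBP, myelin basic protein, with 55.4 ± 12.3 TPM, and CDH19, a cadherin of Schwann cell precursors, with 46.5 ± 4.602 TPM. PRX, periaxin, with 1.80, 1.04 and 0.489 TPM, and EGR2, the master factor of myelination, with 0.508, 0.151 and 0.558 TPM, were near 0. Of the 9 genes, 5 (SOX10, ERBB3, S100B, MBP and EGR2) also stand in another list used here, and the 9 genes summed to 741, 891 and 760 TPM.

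Of 58 receptor tyrosine kinases, 31 (53.4%) had a mean of 1 TPM or more, 17 (29.3%) of 10 TPM or more and 1 of 100 TPM or more, beside 62.6% and 44.2% of all nuclear protein-coding genes at the first 2 levels. Their sum was steady with 650, 646 and 594 TPM. ERBB3, the kinase-impaired receptor of neuregulins, stood apart with 150.4, 129 and 109 TPM, and overlapped with no other receptor unless copies on alternative sequences were added, which gave DDR1, a collagen receptor, 127, 96.6 and 73.9 TPM. RYK, a Wnt co-receptor, had 52.8, 49.5 and 48.2 TPM and MET, the receptor of hepatocyte growth factor, 36.1, 45.3 and 43.3 TPM. RYK lay above MET in every library.

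The next 10 receptors, from FGFR4 to EPHA3, followed so closely that each overlapped with its neighbours in the order. FGFR4, a fibroblast growth factor receptor, had 41.8, 30.7 and 34.0 TPM and EPHB4, a receptor of ephrin-B2, 25.7, 36.9 and 38.6 TPM. TYRO3 had the value described below. ERBB2, the partner of ERBB3, had 29.6 ± 0.482 TPM, and EPHA2, an ephrin-A receptor, 29.3 ± 2.33 TPM. The discoidin domain receptors for collagen, DDR2 and DDR1, had 27.3 ± 2.66 and 23.7 ± 6.30 TPM, the latter without its alternative-sequence copies. PTK7, a kinase-dead Wnt receptor, had 25.8 ± 0.904 TPM. EPHA3, an ephrin-A receptor, had 21.5 ± 3.35 TPM and EPHA4, of the same family, 13.0 ± 1.82 TPM.

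IGF1R, the receptor of insulin-like growth factor, had 24.5, 19.1 and 11.8 TPM, was highest in experiment 1 and differed 2.09-fold between libraries, or 1.20-fold on CPM. FGFR1 had 11.1 ± 2.15 TPM. Of the 58, 4 receptors, EPHA7, ROR2, MUSK and EPHB6, were at 0 in all libraries. Others were chosen after their values were seen for their known place in melanoma: KIT, the stem cell factor receptor that melanoblasts need, had 2.70, 2.67 and 1.76 TPM, EGFR, the epidermal growth factor receptor, 0.714, 0.763 and 0.165 TPM and PDGFRB, a receptor of platelet-derived growth factor, 2.58, 1.86 and 1.38 TPM.

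Of the TAM family, TYRO3 (at chr15:41557675-41583586) had 36.3, 27.7 and 30.2 TPM (31.4 ± 4.46) in spite of the hairpin, AXL (at chr19:41219203-41261766) had 25.8 ± 4.21 TPM and MERTK (at chr2:111898479-112029561) had 7.90, 8.96 and 10.5 TPM. On TPM summed over all transcripts TYRO3 ranked above AXL in every library, by less in experiment 2 than in the others. MERTK lay below both in every library. In estimated counts, which are not corrected for length, AXL had 329, 2550 and 1089 and TYRO3 202, 1755 and 1119. The order of TYRO3 and AXL thus depended on the measure. With no library from cells without the hairpin, what the TYRO3 level was before the knock-down is not known here. Not all of this RNA was annotated as coding. Of 9 TYRO3 transcripts, the 3 protein-coding ones had 17.8, 14.9 and 18.8 TPM together, most of it in TYRO3-202 with 9.60, 12.1 and 15.2 TPM. TYRO3-209, a transcript with a retained intron, had 7.77, 9.13 and 8.44 TPM, and the short TYRO3-205, also with a retained intron, 8.18, 2.86 and 1.63 TPM. In experiment 1 TYRO3-205 and the short coding TYRO3-208 rested on 10.5 and 15.2 estimated counts, and TYRO3-202 was lowest there although the TYRO3 sum was highest.

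Ligands of the family were present as well. LGALS3, the lectin galectin-3 that can bind MERTK, had 115, 150.3 and 157 TPM and PROS1, protein S, 25.3, 30.5 and 29.3 TPM. TUB, a tubby protein known as a bridge to MERTK in phagocytosis, had 6.21 ± 0.1001 TPM. GAS6, the ligand with the highest affinity for AXL, had only 0.711, 2.28 and 1.23 TPM, and TULP1, related to TUB, 0, 0.0958 and 0.206 TPM. PROS1 exceeded GAS6 over 10-fold in every library, and the 3 values of GAS6 overlapped with those of no other ligand.

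Proteases of the kinds that cut TAM receptors were expressed throughout. All 9 sheddase and gamma-secretase genes were above 1 TPM and 8 (88.9%) above 10 TPM, beside 62.6% and 44.2% of all nuclear protein-coding genes. APH1A, a scaffold of gamma-secretase, had 141, 189.8 and 187 TPM, NCSTN, its substrate receptor nicastrin, 151, 167 and 147 TPM and PSENEN, the small subunit, 64.9 ± 10.7 TPM. PSEN2, a catalytic subunit, had 35.6 ± 4.92 TPM. The surface proteases ADAM10 and ADAM17 had 128, 119 and 95.6 and 53.3, 50.3 and 44.03 TPM, both highest in experiment 1, lowest in experiment 3 and above TYRO3 in every library, and APH1B, the alternative scaffold, was lowest with 3.19 ± 0.595 TPM.

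**Figure D3:**
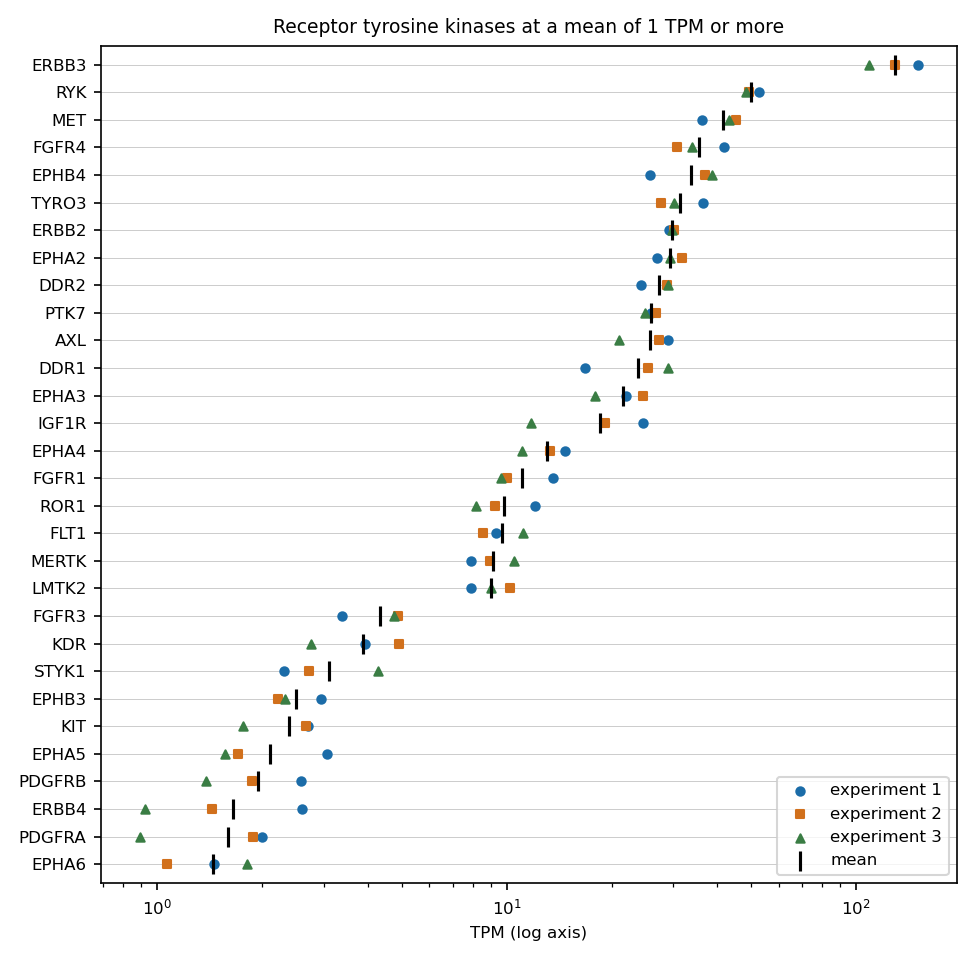
TPM (x axis, log scale) of 30 receptor tyrosine kinases with a mean of 1 TPM or more (y axis, ordered by mean) in experiments 1 (circles), 2 (squares) and 3 (triangles), with a black bar at the mean. Without copies on alternative sequences ERBB3 is separate at 109 to 150.4 TPM. The receptors from FGFR4 to EPHA3, TYRO3 and AXL among them, lie between 16.7 and 41.8 TPM, and each overlaps with its neighbours in the order.

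Receptors of other classes were led by TFRC, the transferrin receptor, with 310.2, 243 and 235 TPM. NRP2, a co-receptor of semaphorins and VEGF, had 155 ± 21.5 TPM, TNFRSF1A, the TNF receptor, 81.7 ± 5.95 TPM and F2R, the thrombin receptor, 49.2 ± 0.865 TPM. Of 39 such genes, 36 (92.3%) were at 1 TPM or more and 22 (56.4%) at 10 TPM or more. Among all nuclear protein-coding genes the shares were 62.6% and 44.2%. LIFR, the receptor of leukaemia inhibitory factor, had 0, 0.179 and 0.221 TPM and EDNRA, an endothelin receptor, 0, 0.151 and 0.0821 TPM, while its relative EDNRB, the endothelin receptor of melanoblasts, chosen after its values were seen, had 32.9 ± 5.02 TPM. NOTCH4 was listed at 0.337 ± 0.0668 TPM, and at 2.51 TPM with copies on alternative sequences added.

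Of 26 integrin subunits, 20 (76.9%) were at 1 TPM or more and 13 (50%) at 10 TPM or more. These shares stood beside 62.6% and 44.2% of all nuclear protein-coding genes. ITGB1, the beta subunit shared by most collagen and laminin receptors, had 359, 381 and 356 TPM and ITGB5, a partner of ITGAV, 163 ± 11.8 TPM. ITGA6, a laminin-binding alpha subunit, had 119.6 ± 6.38 TPM, ITGA5, the fibronectin receptor subunit, 63.5 ± 8.89 TPM and ITGAE 60.0 ± 2.53 TPM. The leukocyte subunit ITGAM had 0, 0.280 and 0.0159 TPM, and ITGB6 and ITGA8 were below 0.2 TPM in every library. None of the 13 integrins at 10 TPM or more was highest in experiment 3, and 9 (69.2%) were highest in experiment 2, beside 31.1% and 43.2% of all genes at that level.

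The pathway downstream of receptor kinases was expressed throughout. All 23 genes of MAPK and growth control were above 1 TPM, beside 62.6% of all nuclear protein-coding genes. The 23 summed to 1432, 1450 and 1398 TPM. CDK4, the kinase of the G1 phase, had 261 ± 11.3 TPM, its cyclin CCND1 181 ± 18.9 TPM and the MAPK kinase MAP2K2 223 ± 22.1 TPM. The lowest were RB1, the retinoblastoma protein, with 4.14 ± 0.960 TPM, and the inhibitors of CDK4, CDKN2A with 5.34, 10.7 and 5.58 TPM and CDKN2B with 4.03, 11.5 and 7.76 TPM. CDKN1A, the inhibitor p21, was among the most unequal with 11.5, 29.3 and 19.9 TPM, as was HRAS with 19.4, 39.4 and 49.96 TPM. With alternative-sequence copies added HRAS had 38.2, 54.6 and 61.4 TPM, a range of 1.61-fold in place of 2.57-fold.

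Negative regulators and ETS factors that ERK activity is known to switch on had a mean above 10 TPM in 13 of 13 cases in these serum-starved cells. Among all nuclear protein-coding genes the share at 10 TPM or more was 44.2%. ETV4, an ETS factor, had 153, 155 and 119.6 TPM, the ERK phosphatases DUSP4 and DUSP6 98.1, 147 and 127 and 74.0, 104 and 84.2 TPM, IER3 84.5 ± 25.6 TPM and ETV5 66.9 ± 4.01 TPM. The lowest of the list were the Sprouty inhibitors SPRY2 (20.1 ± 4.00 TPM) and SPRY1 (15.7 ± 2.49 TPM) and the phosphatase DUSP5 with 7.01, 16.5 and 10.8 TPM. IER3 reached 144 TPM with alternative-sequence copies added. Of the 13, 12 (92.3%) were highest in experiment 2 beside 43.2% of all genes at 10 TPM or more.

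Immediate-early genes, which serum induces within minutes, had a median of 5.14 TPM, near the 5.98 TPM of all nuclear protein-coding genes. Of 12, 10 (83.3%) had a mean of 1 TPM or more, beside 62.6% of all these genes. A mean of 10 TPM or more was reached by 3 (25%), beside 44.2%. These were NR4A1, an orphan nuclear receptor, with 40.3, 56.9 and 59.5 TPM, IER2 with 25.2, 37.9 and 32.3 TPM and JUNB, a partner of FOS, with 9.27, 25.1 and 19.6 TPM. FOS had 9.79 ± 1.88 TPM and KLF4 7.69 ± 3.07 TPM. The growth response factors EGR3, EGR2 and the FOS relative FOSB were lowest, EGR3 with 1.26 ± 0.750 TPM, FOSB with 0.597 ± 0.0612 TPM and EGR2 with 0.508, 0.151 and 0.558 TPM.

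Cell cycle genes were high, and all but MCM4 stayed within 2-fold between experiments. All 25 were at 10 TPM or more and 15 at 100 TPM or more, beside 44.2% and 7.86% of all nuclear protein-coding genes. The 25 had a median of 118 TPM and a sum of 3513, 3183 and 3281 TPM. TYMS, thymidylate synthase, had 360.4 ± 10.7 TPM, PCNA, the DNA polymerase clamp, 277 ± 15.9 TPM, CCNB1, the mitotic cyclin B1, 231 ± 10.2 TPM and MCM7, a subunit of the replicative helicase, 226 ± 5.31 TPM. MCM4, another subunit of that helicase, had 475, 282 and 237 TPM. It was the only one of the 25 (4%) with over 2-fold between libraries, beside 2.59% of all genes at 10 TPM or more. On CPM the inequality was lost, as MCM4 had 463, 415 and 436 CPM. MKI67, the proliferation antigen Ki-67, came next in inequality with 65.6, 49.99 and 45.3 TPM. The lowest were the G1 cyclins CCNE2 (31.7 ± 4.73 TPM) and CCNE1 (28.9 ± 2.59 TPM) and E2F1 (25.4 ± 2.08 TPM), a factor that drives S phase. The median spread of the 25 genes was a CV (SD divided by mean) of 8.19%, beside 12.0% for all genes at 10 TPM or more. Spread falls with level, and the median CV of all genes of 100 to 1000 TPM was 9.21%, closer to that of this list.

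Metabolic and secretory genes were also high. A mean of 10 TPM or more was reached by 44.2% of all nuclear protein-coding genes. Of the 15 chaperones of the endoplasmic reticulum all were above 10 TPM, led by HSP90B1 (778 ± 33.9 TPM), CALR, calreticulin (723 ± 35.8 TPM), PDIA3, a disulfide isomerase (469 ± 43.0 TPM), CANX, calnexin (457 ± 67.0 TPM, or 749 TPM with alternative-sequence copies), and PDIA6 (322 ± 32.4 TPM). All 19 genes of cholesterol synthesis were above 10 TPM with a median of 126 TPM, and FDPS, which makes farnesyl diphosphate, had 341, 504 and 429 TPM and HMGCS1, the synthase before the rate-limiting step, 276, 409 and 311 TPM. Both were highest in experiment 2, as were 12 of the 19 (63.2%) beside 43.2% of all genes at 10 TPM or more. Glycolytic enzymes reached 1725 ± 115 TPM for PKM, pyruvate kinase, 1675 ± 223 TPM for ENO1, enolase, and 1521 ± 68.4 TPM for LDHA, lactate dehydrogenase, whereas the hypoxia genes CA9, ADM and EGLN3 were at 0.0552 ± 0.0683, 1.25 ± 0.193 and 1.93 ± 0.569 TPM.

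Markers of other cells were checked in the same libraries. Defining genes of several types were at 0 in every library, namely KRT5, KRT1 and KRT6A of keratinocytes, CD3E and MS4A1 of lymphocytes, ALB and FGB of liver, ERG of endothelium and HBA1, HBA2, HBB and ALAS2 of red cells. The summed TPM was 44.1 ± 1.68 for 12 leukocyte genes, 4.84 ± 1.66 for 7 endothelial, 8.50 ± 1.84 for 6 neuronal, 0.471 ± 0.156 for 5 liver, 0.559 ± 0.669 for 5 erythroid and 1.02 ± 0.824 for 3 pluripotency genes. In 3 lists a single gene carried most of the sum. These were CD68, a lysosomal protein, with 40.4 ± 1.83 TPM among the leukocyte genes, KRT10, a keratin, with 98.4 ± 11.5 TPM of 100.2 TPM over 9 keratinocyte genes, and LUM, the proteoglycan lumican, with 72.8, 84.5 and 66.1 TPM of 90.8 TPM over 10 fibroblast genes. Of the 10 fibroblast genes, 7 (70%) had a mean of 1 TPM or more, beside 62.6% of all nuclear protein-coding genes. The fibroblast collagens COL1A2 and COL3A1 had 0, 0.0583 and 0.0375 and 0, 0.414 and 0.191 TPM. The collagens COL1A1 and COL6A3 of the same list were higher, with means of 5.43 and 2.72 TPM.

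Across genes the 3 libraries had similar profiles, and experiment 1 stood somewhat apart. On log2 TPM of the 12470 genes at 1 TPM or more, Pearson's r was 0.956 between experiments 1 and 2, 0.952 between 1 and 3 and 0.983 between 2 and 3. These are correlations over genes, which are not independent replicates, and the libraries share their annotation and differ in depth. The median CV of genes at 10 TPM or more was 12.0%. It was 24.7% for genes of 1 to 10 TPM, 12.7% for 10 to 100 TPM, 9.21% for 100 to 1000 TPM and 9.30% above that. The median gene of 1 to 10 TPM had 21 estimated counts in experiment 1, so the wider spread of low genes goes along with few counts; its cause was not tested. Without experiment 1 the median CV at 10 TPM or more was 7.14%.

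Of the 8812 genes at 10 TPM or more, 228 (2.59%) differed over 2-fold between their highest and lowest library. Experiment 1 held the highest value in 112 and the lowest in 98 of them. In 63 genes experiment 1 lay over 2-fold from each of the other libraries, higher in 30 and lower in 33, while this held in 11 genes for experiment 2 and 13 for experiment 3. Experiments 2 and 3 alone differed over 2-fold in 33 genes. The published processing names experiment 1 as 1 batch and experiments 2 and 3 as the other, and depth, the mitochondrial share and batch differ together between these libraries, so they cannot be told apart. Of 21 listed genes at 10 TPM or more past 2-fold, 7 were within 2-fold on CPM and 1 with alternative-sequence copies added. The counts over all genes also depend on the scale, with 141 such genes on CPM and 13 among genes at 100 TPM or more.

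**Figure D4:**
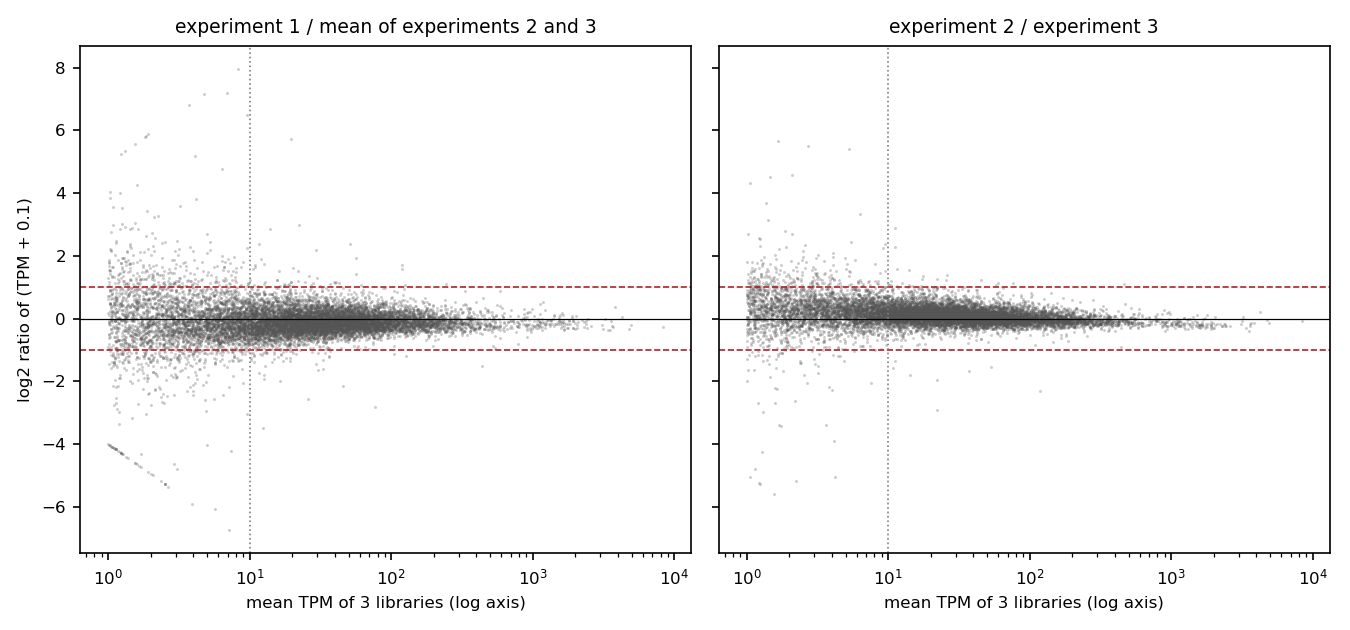
log2 ratio of TPM (with 0.1 TPM added; y axis) of experiment 1 to the mean of experiments 2 and 3 (left) and of experiment 2 to experiment 3 (right) against the mean TPM of the 3 libraries (x axis, log scale), 1 point per nuclear protein-coding gene at 1 TPM or more. Dashed red lines mark 2-fold and the dotted line 10 TPM, and the cloud is wider on the left and at low TPM, where the slanted row of points at the bottom left holds genes at 0 in experiment 1.

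Interferon-stimulated genes formed the list with the largest median CV, 42.4% over its members at 10 TPM or more beside 12.0% for all genes at that level. This list was written with earlier results of these data known. All 18 were at 1 TPM or more, beside 62.6% of all nuclear protein-coding genes, and the 18 summed to 309, 795 and 454 TPM. Of the 10 at a mean of 10 TPM or more, 9 of them (90%) were highest in experiment 2 beside 43.2% of all genes at that level, and 7 (70.0%) differed over 2-fold beside 2.59%. ISG15, a ubiquitin-like modifier, had 68.3, 190.3 and 122 TPM and IFI6, an interferon-induced membrane protein, 15.2, 148 and 67.6 TPM. MX1, an antiviral GTPase, had 13.6, 85.6 and 36.7 TPM. All 3 were lowest in experiment 1 and highest in experiment 2. IFI44 with 62.7, 76.3 and 58.5 TPM and IFIT3, an RNA-binding antiviral protein, with 41.7, 55.4 and 29.2 TPM were lowest in experiment 3 and again highest in experiment 2. OAS1, a synthase that senses double-stranded RNA, had 0, 3.05 and 0.763 TPM, and the related OAS2 and IFI44L had 0.148, 3.33 and 0.923 and 0.0680, 6.32 and 2.84 TPM, also highest in experiment 2. RSAD2, the antiviral viperin, had 0.432, 2.19 and 0.651 TPM and USP18, which removes ISG15, 0.440, 3.70 and 1.70 TPM.

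Genes of the amino acid response, a program directed by ATF4, had another order. Their list too was written with earlier results of these data known. Their sum was 1796, 2044 and 2628 TPM, and of the 14 at 10 TPM or more, 13 (92.9%) were highest in experiment 3 beside 31.1% of all genes at that level and 12 (85.7%) lowest in experiment 1 beside 54.7%. SLC7A5 and SLC3A2, the chains of the large neutral amino acid transporter, had 397, 499 and 507 and 334, 375 and 447 TPM. ATF4 itself had 241, 253 and 316 TPM, and the serine pathway enzymes SHMT2 and PSAT1 180.2, 188 and 254 and 141, 157 and 259 TPM. TRIB3, a pseudokinase of the stress response, had 27.3, 49.1 and 55.9 TPM, a range of 2.04-fold on TPM and 1.82-fold on CPM. It was the only one of the 14 members at 10 TPM or more past 2-fold (7.14%), beside 2.59% of all genes at that level. CHAC1, which degrades glutathione, and SESN2, sestrin 2, were lowest with 6.66 ± 2.02 and 2.50 ± 0.925 TPM. SESN2 had 4.996 TPM once alternative-sequence copies were added. The median log2 ratio of experiment 1 to the mean of the others was -0.38 for these genes, -0.87 for the interferon-stimulated genes and -0.12 over all genes at 10 TPM or more, and it was -0.29, -0.69 and -0.06 on CPM.

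**Figure D5:**
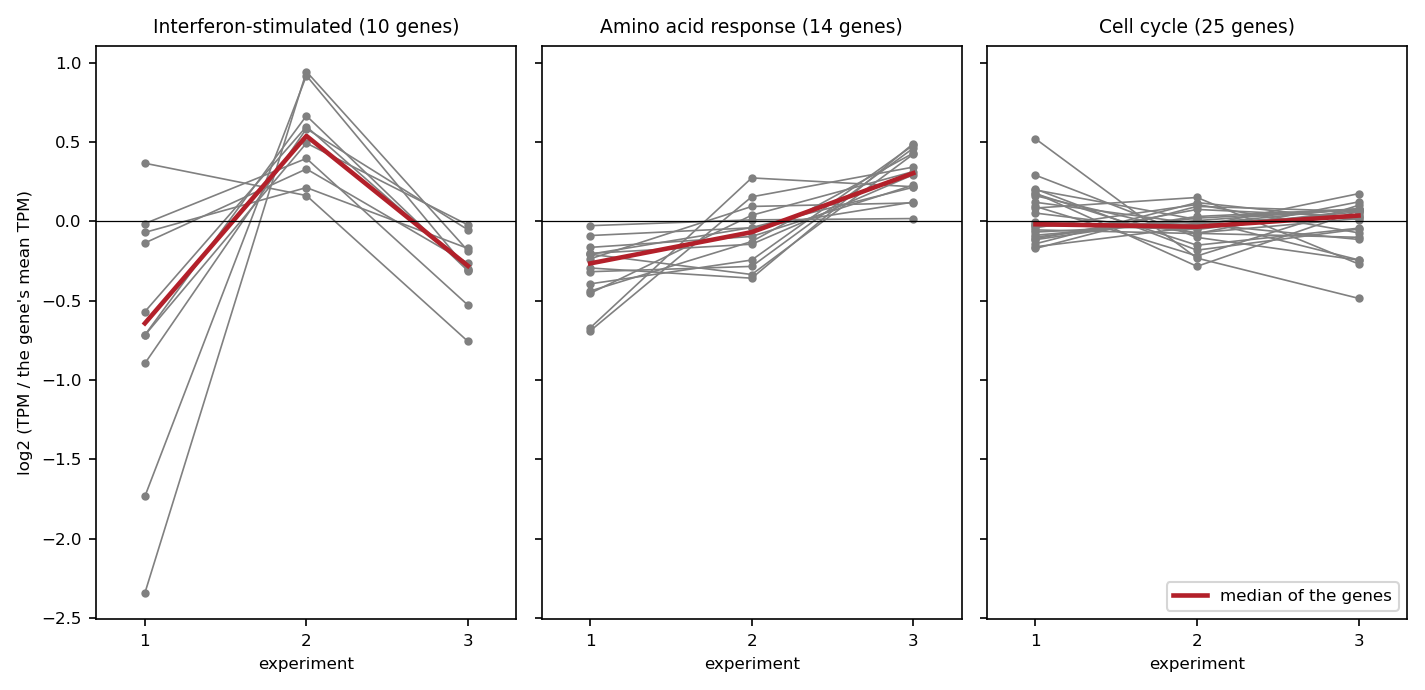
log2 of TPM over the gene's own mean TPM (y axis) in experiments 1, 2 and 3 (x axis) for members at 10 TPM or more of the interferon-stimulated, amino acid response and cell cycle lists (grey lines, 1 per gene; red line, median of the genes). Of the 10 interferon-stimulated genes 9 are highest in experiment 2, 13 of the 14 amino acid response genes are highest in experiment 3, and the cell cycle genes stay close to 0 apart from MCM4, whose range was 2.01-fold on TPM and 1.12-fold on CPM.

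The genes at 10 TPM or more with the most extreme ratios rested in part on short or duplicated transcript models. Among the 10 with the highest ratio of experiment 1 to the others were AL049779.1 (56.4, 1.04 and 0.884 TPM), AL035078.4, AC006486.1, AC034102.2 and CSAG2, and in 9 of the 10 over 50% of the TPM of experiment 1 came from transcripts under 600 bases. AL049779.1 reached its 56.4 TPM with 24.0 estimated counts. COL18A1, a basement membrane collagen, had 32.7, 3.89 and 4.98 TPM on 240.2, 371 and 105 estimated counts, so that its excess in experiment 1 also held per count (8.17-fold on CPM). SMARCB1, LSM14A, ABR and NTAN1 lost most of their excess when copies on alternative sequences were added, as SMARCB1 went from 111, 20.5 and 21.6 TPM to 253, 178 and 180 TPM. In all, 8 of the 25 genes named for their ratios gained TPM in this way, and all 8 were then within 2-fold.

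The lowest ratios of experiment 1 included 3 interferon-induced genes. IFI6 and MX1 are given above, and IFITM1, a membrane protein that blocks virus entry, had 5.91, 49.9 and 21.0 TPM. BLVRB, biliverdin reductase, had 12.7, 37.0 and 41.8 TPM, CRABP2, a carrier of retinoic acid, 4.49, 16.2 and 14.5 TPM and CHD1L, a chromatin remodeller, 13.8, 42.3 and 42.8 TPM. The histone genes HIST1H4J and HIST1H2BD rested on 3 and 9 estimated counts in experiment 1, SMIM11B is a near copy of SMIM11A and ZNHIT3 came within 2-fold with the copies added. Between experiments 2 and 3 the most unequal were CDK7, TRIM27, C6orf47, LUZP6 and EIF3CL. CDK7, TRIM27 and C6orf47 came within 2-fold with the copies added, LUZP6 rested on a transcript of 177 bases and EIF3CL is a near copy of EIF3C.

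At the other end were genes with almost the same value each time. Of those at 100 TPM or more, the smallest CVs were those of EIF4H, a cofactor of the translation helicase (356, 356 and 354 TPM, CV 0.289%), SUB1, a transcriptional coactivator (368, 368 and 370.3 TPM), EIF3G, a subunit of initiation factor 3 (151, 153 and 153 TPM), CNOT7, a deadenylase (146, 147 and 148 TPM) and KIF1C, a kinesin (111, 111 and 110 TPM). With only 3 libraries, these values describe the libraries and do not mark stable reference genes. All 16 genes of the housekeeping list had a mean above 10 TPM, beside 44.2% of all nuclear protein-coding genes. The median of the 16 was 987 TPM. Their median CV was 8.77%, beside 12.0% for all genes at 10 TPM or more and 9.21% for those of 100 to 1000 TPM. Within the list ACTB had a CV of 15.6%. The lowest were HPRT1, a purine salvage enzyme, at 70.2 ± 5.09 TPM, GUSB, a lysosomal enzyme, at 60.1 ± 4.33 TPM and TBP, the TATA-binding protein, at 27.2 ± 2.86 TPM, and POLR2A, the catalytic subunit of RNA polymerase II, was the most unequal with 102, 78.9 and 58.5 TPM.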

How the data were processed

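The authors prepared polyadenylated RNA libraries with a stranded TruSeq kit and deposited, per library, estimated counts and TPM for each Ensembl 96 transcript made with kallisto 0.46.0 from quality-trimmed reads. The strand setting is not given in the sources used here. Transcripts were joined by identifier to GENCODE 29 (169797 of 188753 matched) and the TPM of each of 19935 nuclear protein-coding genes was summed. Unmatched transcripts, 15521 of 18956 of them with a gene symbol, include gene copies on alternative genome sequences and were added back by symbol only as an alternative. Ratios on the log2 scale used 0.1 TPM as a pseudocount. The 3 libraries form 1 group, so means, SDs and CVs are given with no test. The scripts were tested on simulated data. The members and gene lists were chosen with earlier results of these data known. Named genes were the 20 highest, all lineage and pigment genes, the TAM receptors and ligands, every receptor tyrosine kinase at 10 TPM or more, and in the other lists the 5 highest, the 3 lowest and the 3 most unequal, to which genes with the most extreme ratios between experiments and the smallest CVs were added. Alternatives were CPM (counts scaled to a fixed total per library), median-ratio scaling, other thresholds and pseudocounts, thinning to the smallest library and leaving out each experiment. Depth ranged from 4008293 to 38184838 estimated counts, and in the smallest library 3 counts equal 0.748 CPM. Results for some genes are not reported here.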

Additional observations from a re-analysis of the deposited data

How the results depend on the processing

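Of 74 alternatives over 11 results, 54 left the result within its spread or within 1.5 times its count. Requiring under 3 counts in every library raised the number of genes at 0 to 4061, and thinning to the smallest library raised it to 4021. On CPM, which do not correct for length, the 20 highest genes held 5.77%, the summed levels were 2211 for the pigment list, 1498 for the lineage factors and 12268 for the invasive core, TYRO3 had 49.7 and 141 genes differed over 2-fold. With TPM rescaled to nuclear protein-coding genes the same quantities were 8.60%, 2128.5, 1012, 14102 and, for TYRO3, 38.7 TPM. The log2 ratio of pigment to invasive core medians was -1.67 over members at 1 TPM or more. TYRO3 had 17.2 TPM from protein-coding transcripts alone, an alternative added after the data were seen. Of genes at 100 TPM or more, 13 differed over 2-fold. Leaving out each experiment gave a median CV of 7.14% to 11.7% and 33 to 142 genes over 2-fold, with 33 without experiment 1. The log2 ratio of pigment to invasive core medians stayed negative under every alternative. The other listed results are levels, shares, counts or spreads and cannot change sign. Adding alternative-sequence copies, also chosen after the data were seen, moved 19 of 455 listed genes at 1 TPM or more beyond their spread. No paired analysis was possible because the group was compared with no other. Depth limits low genes most, since genes of 1 to 10 TPM had a median of 21 estimated counts in experiment 1.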

Other observations

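HOX genes, which set position along the body axis, were expressed from all 4 clusters, with the smallest share in HOXD. They were chosen after their values were seen. Of 10 HOXB genes 9 had a mean of 1 TPM or more, as had 9 of 11 HOXA, 8 of 9 HOXC and 5 of 9 HOXD genes, beside 62.6% of all nuclear protein-coding genes. Only 1 gene of the 4 clusters, in HOXB, was at 0 in every library, beside 13.4% of all genes. HOXB6 had 60.2, 76.5 and 48.4 TPM and HOXB7 48.9, 61.5 and 59.0 TPM, and their ranges overlapped. HOXB9 (36.3 ± 7.28 TPM), HOXB8 (36.3 ± 6.72 TPM) and HOXC10 (32.1 ± 2.95 TPM) followed, while the highest HOXA gene was HOXA10 with 20.9 ± 2.62 TPM and the highest HOXD gene HOXD4 with 8.76 ± 3.43 TPM. HOXB3 was unequal, with 30.3, 24.2 and 12.1 TPM.

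Families tied to other tissues, likewise chosen after their values were seen, were mostly at 0. This held for 242 of 386 olfactory receptors, 83 of 94 keratin-associated proteins, 35 of 39 beta-defensins, 11 of 13 interferon alpha genes and all 18 late cornified envelope genes. Among all nuclear protein-coding genes the share at 0 in every library was 13.4%. Of 55 keratins 34 were at 0, with KRT18, a keratin of simple epithelia, highest at 137 TPM.

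Mitochondrial protein-coding genes all had their highest TPM in experiment 1 and their lowest in experiment 3. The 3 genes named were chosen after their values were seen. MT-CO3, a subunit of cytochrome c oxidase, had 20868, 17434 and 13068 TPM. MT-ATP8, a small subunit of the ATP synthase, was the most unequal with 24342, 15843 and 10014 TPM, and MT-ND3, a subunit of complex I, the least with 5099.6, 4550.0 and 3919 TPM. Their ratios of experiment 1 to the mean of the others ran from 1.20 to 1.88.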
